A study of Homo sapiens with 9 samples.

Results

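The lysine demethylases examined here are 10 enzymes of the Jumonji family, KDM2A, KDM2B, KDM3A, KDM3B, KDM4A, KDM4B, KDM4C, KDM5A, KDM5B and KDM6B, which remove methyl groups from histone lysines. They were chosen by name, and 9 of them are among the 20078 genes with a probe on the arrays. Each of these 9 was described by every probe that the platform annotation assigns to it by Entrez ID. The main counts over genes use the brightest probe of each tested gene. AGS, an established line from a human gastric adenocarcinoma, had been stably transduced by lentivirus with a short hairpin RNA against HIF-1α (labelled HIF-KD, called HIF- here) or with a scrambled control hairpin (SCR). The paper grew AGS cells in recommended medium and gives normoxia for its growth assays. Its methods for the arrays state no oxygen level and name no other treatment. Each group had 3 biological replicates, which were hybridized to Illumina BeadChips, microarrays that measure the RNA bound to each probe as a fluorescent signal. Replicates 1 and 2 were on the HumanRef-8 version with 1 array per group. Replicate 3 was on the HumanHT-12 version with 2 SCR and 3 HIF- arrays as technical replicates, so that the series holds 9 arrays. Each group is a stably transduced derivative of this 1 line, and whether it is a clone or a pool of cells is not given in the sources used here. The replicates are repeats of the same pair of lines, and p-values measure only the spread between them.

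Jumonji demethylases use iron, molecular oxygen and 2-oxoglutarate to hydroxylate the methyl group of a lysine, which is then lost as formaldehyde. Succinate and fumarate, products of the tricarboxylic acid cycle, inhibit them. The family is tied to hypoxia in another way as well, since KDM3A and KDM4B are known in other cells as genes that HIF-1 switches on when oxygen falls, and KDM4C as a protein that binds HIF-1α in breast cancer cells. The comparison of HIF- with SCR asks what the RNA of these enzymes does in gastric cancer cells with a stable knock-down of HIF-1α.

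No measured member differed between HIF- and SCR cells past the test. The differences nearest to it were opposite in direction, with KDM3A 1.26-fold lower and KDM6B 1.27-fold higher in HIF- cells, each with the same sign in all 3 replicates. The fold of KDM6B is set against a dim level, since its probe was detected on 1 of 4 SCR arrays and, in replicate 2, in neither group. Of the 10 members, 9 had a probe and 8 could be tested. The targeted gene was HIF1A, whose log2 signal was 9.02, 7.57 and 7.97 in SCR replicates 1, 2 and 3 and 6.35, 5.33 and 5.95 in the HIF- replicates. It was 4.96-fold lower in HIF- cells (log2 fold change -2.31, SE 0.16, n = 3 per group, limma adjusted p = 0.0044). Without replicate 1 the log2 fold change was -2.13 with an adjusted p of 0.0908, and in fits without the replicate block the adjusted p was at least 0.782. Signals here are normalized log2 values, on which a step of 1 is a doubling. The largest change of a demethylase, 0.35, compares with a smallest absolute change of 1.06 among the transcripts that passed the test.

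The depth of an array is its signal over background. Between 46.1% and 55.6% of the probes of a HumanRef-8 array and between 33.6% and 36.1% of those of a HumanHT-12 array were detected, meaning a detection p under 0.01 against the negative control beads. The number of arrays limits the precision. Among epithelial markers, 6 of 7 were detected on all 9 arrays, and the other, CLDN4, on 7. Of 15 markers of other cell types on the arrays, 9 were detected on no array, among them the leukocyte gene PTPRC, the endothelial genes VWF and CDH5 and the stromal genes COL1A2 and PDGFRB. LYZ, for lysozyme, and ACTA2, for smooth muscle actin, were detected on all arrays. The other 4 were detected on some, the stromal COL1A1 on 8 of 9, the neural NCAM1 on 4, the endothelial PECAM1 on 3 and the monocyte gene CD14 on 1. Of the 7 markers of other cell types that entered the fit 0 passed limma and 1, ACTA2, had an unadjusted p under 0.05. ACTA2 had a log2 fold change of 0.69 (limma adjusted p = 0.149), and its part in the results was not tested. In RNA from a whole culture, fewer cells of a type and less RNA per cell cannot be told apart.

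The 12 probes of the demethylases differed in how firmly they were detected. On every array that carried them, 6 were detected, those of KDM2A, KDM3A, KDM3B, KDM4A and KDM5B and the brightest of KDM2B. KDM4C was detected on 7 of 9 arrays, KDM6B on 4 and the better probe of KDM4B on 3. The probe of KDM2A was on the HumanHT-12 version only, which left 11 probes on both versions. KDM5A had no probe annotated to it. A probe named RBP2, an older name of KDM5A, belongs by its Entrez ID to a retinol-binding protein and was not used. A probe entered the fit only if it was above the median of its array in at least 1 of the 6 averaged samples, and 9 of the 11 probes did. The probes of KDM3A, KDM3B, KDM4A, KDM4C and KDM5B and the brightest of KDM2B passed in all 6 samples. KDM4B and a dim probe of KDM2B passed in both groups of replicate 3 alone. KDM6B passed in the same 2 samples and in HIF- replicate 1, but not in SCR replicate 1.

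**Figure D1:**
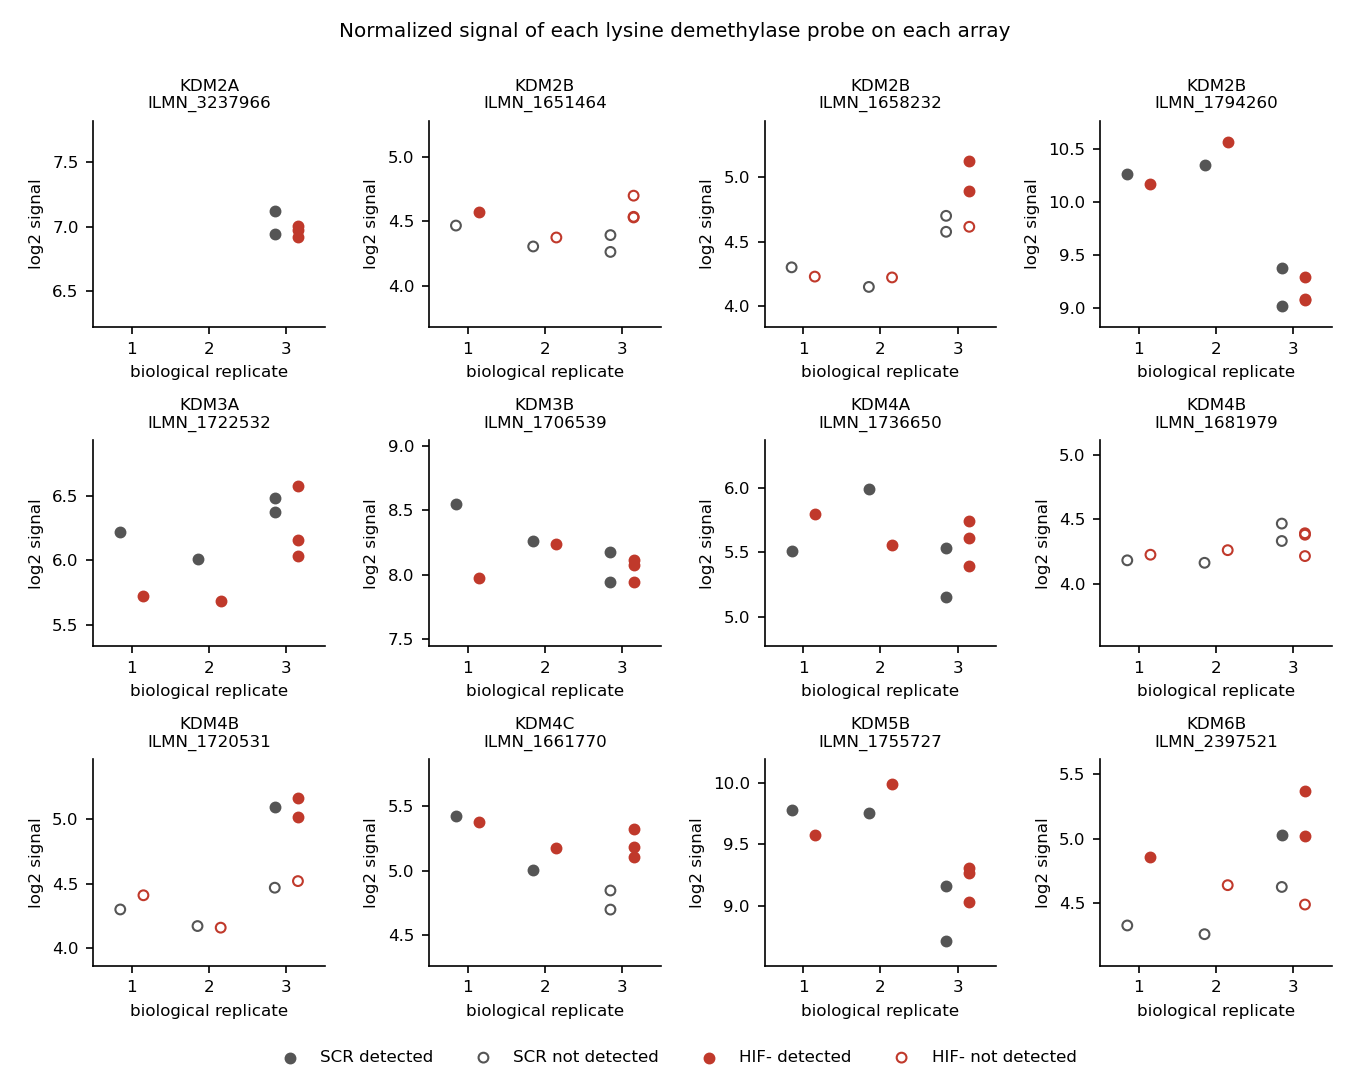
Normalized log2 signal (vertical axis, its range set for each panel) of the 12 demethylase probes on each array, by biological replicate (horizontal axis). Grey points are SCR arrays, red points are HIF- arrays, and open points are arrays on which the probe was not detected. KDM2B (ILMN_1794260) and KDM5B were detected on all 9 arrays, and KDM4B (ILMN_1681979) on none. Levels were normalized separately for replicate 3, so groups are read within a replicate.

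HIF-1 binds DNA at a core of ACGTG or GCGTG. Promoter windows of the members in the assembly GRCh38.p14 were searched for these letters on both strands. Each window runs from 250 bases before to 50 bases after a start. The windows do not cover every start, since none reaches the outermost RefSeq start of KDM2B, KDM3A or KDM4C. The palindrome CACGTG counts once on each strand, so its letters hold 2 overlapping matches. A match was present in 48.4% of all 35116 windows of this length (ACGTG in 21.4%, GCGTG in 36.5%). Among the members, 13 of 16 windows had at least 1 match, and these count the same match in 2 overlapping windows of KDM3A. KDM3B had none. Whether the members differ from all windows was not tested, and no share was computed by gene. The windows printed are those of the members on which the results turn, KDM3A, KDM3B and KDM6B, and of KDM4B and KDM4C, which are tied to HIF-1 in other cells. All run 5′ to 3′ along the plus strand, capitals mark the matches, and a match is a run of letters, not a measured site.
KDM3A, chr2:86441121-86441420: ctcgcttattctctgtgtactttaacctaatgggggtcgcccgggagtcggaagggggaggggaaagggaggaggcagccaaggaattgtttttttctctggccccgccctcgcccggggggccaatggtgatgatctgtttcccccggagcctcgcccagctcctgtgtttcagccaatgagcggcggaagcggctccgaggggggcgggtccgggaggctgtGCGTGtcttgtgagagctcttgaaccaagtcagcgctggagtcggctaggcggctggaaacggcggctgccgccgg
KDM3B, chr5:138352435-138352734: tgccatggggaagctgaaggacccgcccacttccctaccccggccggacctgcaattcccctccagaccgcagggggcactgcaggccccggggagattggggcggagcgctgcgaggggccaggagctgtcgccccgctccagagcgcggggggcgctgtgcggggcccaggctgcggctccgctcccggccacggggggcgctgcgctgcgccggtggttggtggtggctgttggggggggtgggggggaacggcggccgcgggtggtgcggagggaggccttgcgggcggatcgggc
KDM4B, chr19:4968863-4969162: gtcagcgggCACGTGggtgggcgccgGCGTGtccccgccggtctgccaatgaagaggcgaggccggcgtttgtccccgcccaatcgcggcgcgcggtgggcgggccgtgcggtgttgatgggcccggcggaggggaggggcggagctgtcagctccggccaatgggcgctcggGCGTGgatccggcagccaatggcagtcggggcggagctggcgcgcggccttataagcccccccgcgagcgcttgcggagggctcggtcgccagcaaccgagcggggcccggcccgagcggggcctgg
KDM4C, chr9:6757723-6758022: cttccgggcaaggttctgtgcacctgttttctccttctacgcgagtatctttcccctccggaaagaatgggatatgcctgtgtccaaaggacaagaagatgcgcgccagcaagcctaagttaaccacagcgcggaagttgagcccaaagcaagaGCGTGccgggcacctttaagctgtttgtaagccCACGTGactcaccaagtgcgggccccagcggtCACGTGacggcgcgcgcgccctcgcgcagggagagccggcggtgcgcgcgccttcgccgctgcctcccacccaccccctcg
KDM6B, chr17:7833967-7834266: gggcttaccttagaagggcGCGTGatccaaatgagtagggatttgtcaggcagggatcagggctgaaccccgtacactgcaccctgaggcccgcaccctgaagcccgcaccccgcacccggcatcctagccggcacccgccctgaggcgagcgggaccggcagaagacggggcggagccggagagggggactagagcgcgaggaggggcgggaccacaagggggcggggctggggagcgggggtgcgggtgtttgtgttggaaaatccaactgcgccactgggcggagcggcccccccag

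KDM3A had a single GCGTG, 26 bases before the start, and a second start of the gene lies so close that its window holds the same match. KDM4B had 4 matches, of which an overlapping pair lay 241 and 240 bases before the start. KDM4C had 5 in its window, including CACGTG at 63 and again at 31 bases before the start. KDM6B had 1 match, 231 bases before the start shown, and none in its other window.

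KDM3A and KDM3B remove 1 or 2 methyl groups from lysine 9 of histone H3 (H3K9), a mark of silent chromatin. KDM3A was the lowest of the members in HIF- relative to SCR cells. Its log2 signal was 6.22 in SCR and 5.72 in HIF- cells in replicate 1. In replicate 2 the values were 6.01 and 5.69. On the arrays of replicate 3 they were 6.38 and 6.48 in SCR and 6.16, 6.03 and 6.58 in HIF- cells. HIF- was below SCR in each replicate, but in replicate 3 the highest of the 5 arrays was a HIF- array, so the technical arrays overlapped. The differences were -0.50, -0.33 and -0.17 on the log2 scale in replicates 1, 2 and 3. The log2 fold change was -0.33 (SE 0.13, 95% interval -0.63 to -0.03, n = 3 per group). Its limma p was 0.0351 before and 0.610 after Benjamini-Hochberg adjustment over all 12193 features.

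KDM3B was also lower in HIF- cells in all 3 replicates, but almost wholly in replicate 1. Its log2 signal there was 8.54 in SCR and 7.97 in HIF- cells. The values were 8.26 and 8.24 in replicate 2 and 8.06 and 8.04 in replicate 3, where the arrays overlapped. The 3 differences were -0.57, -0.02 and -0.01. The log2 fold change of -0.20 (SE 0.15, 95% interval -0.56 to 0.16, limma adjusted p = 0.721) became -0.02 without replicate 1.

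KDM6B removes methyl groups from H3K27, the mark that the Polycomb complex PRC2 sets, and is known as a gene that inflammatory signals induce. It was the highest of the members in HIF- relative to SCR cells and was dim. In replicate 1 the log2 signal was 4.33 in SCR and 4.86 in HIF- cells, and only the HIF- array detected it. In replicate 2 it was 4.26 and 4.64, and neither array detected it. The arrays of replicate 3 gave 4.63 and 5.03 in SCR and 5.37, 4.49 and 5.02 in HIF- cells, with 1 of 2 and 2 of 3 detected. Both the highest and the lowest of these 5 arrays were HIF- arrays. The differences were 0.53, 0.38 and 0.13 in the 3 replicates. The log2 fold change was 0.35 (SE 0.13, 95% interval 0.04 to 0.66, n = 3 per group), with a limma p of 0.0338 before and 0.602 after adjustment. The probe was detected on 1 of 4 SCR and 3 of 5 HIF- arrays, so its level in SCR cells lay close to background. Since it passed the filter in more HIF- than SCR samples, its entry into the fit was not independent of its direction.

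**Figure D2:**
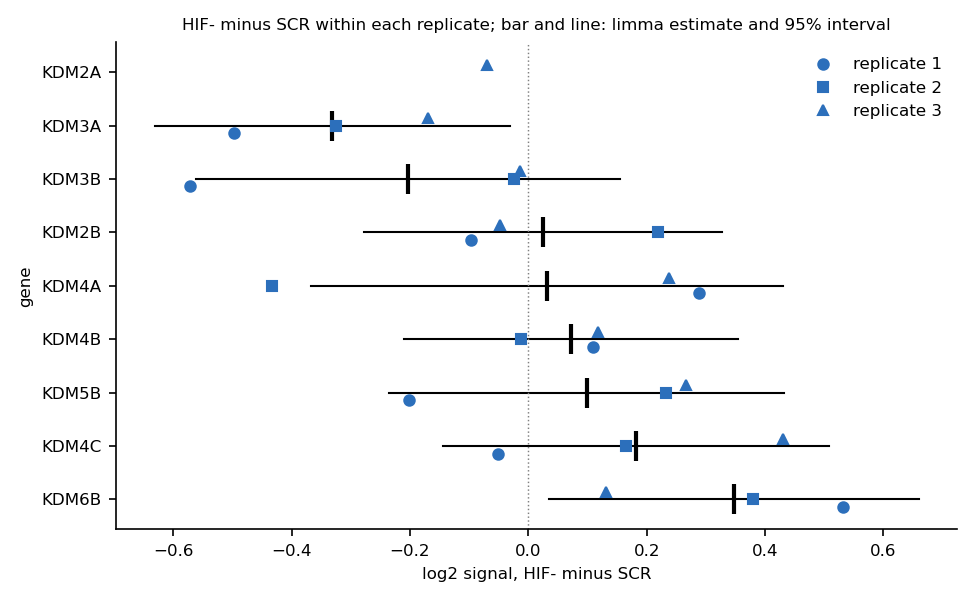
HIF- minus SCR log2 signal (horizontal axis) of each demethylase (vertical axis) in replicate 1 (circles), 2 (squares) and 3 (triangles), with the limma estimate (vertical bar) and its 95% interval (line). KDM3A and KDM6B are the members whose interval leaves out 0 before adjustment, and KDM2A has a value in replicate 3 alone.

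KDM4A, KDM4B and KDM4C act on H3K9 and H3K36 when these carry 2 or 3 methyl groups. Their log2 fold changes were all above 0, but none of these genes had differences of 1 sign in all 3 replicates. KDM4C had a log2 signal of 5.43 in SCR and 5.38 in HIF- cells in replicate 1 and of 5.01 and 5.17 in replicate 2. In replicate 3 the SCR arrays gave 4.85 and 4.70 and the HIF- arrays 5.10, 5.18 and 5.33. All HIF- arrays there lay above both SCR arrays, which did not detect the probe (detection p-values of 0.0117 and 0.0169 per array). Such separation of the technical arrays, in either direction, was seen in 25.2% of the 14448 probes that all 5 arrays detected (12.2% with HIF- higher), a set to which KDM4C does not belong. The differences were -0.05, 0.16 and 0.43, and the log2 fold change was 0.18 (SE 0.14, 95% interval -0.14 to 0.51, limma adjusted p = 0.722).

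KDM4A showed the widest disagreement between replicates. Its log2 signal was 5.51 in SCR and 5.80 in HIF- cells in replicate 1, and 5.99 and 5.55 in replicate 2. The means of replicate 3 were 5.34 and 5.58, with overlapping arrays. The differences of 0.29, -0.43 and 0.24 gave a log2 fold change of 0.03 (SE 0.17, 95% interval -0.37 to 0.43), the largest standard error among the members. KDM4B had 2 probes, and ILMN_1681979 was detected on no array, with log2 signals between 4.16 and 4.47. The other, ILMN_1720531, was detected on 1 of 4 SCR and 2 of 5 HIF- arrays, all in replicate 3. It gave 4.30 and 4.41 in SCR and HIF- cells of replicate 1, 4.17 and 4.16 in replicate 2 and 4.78 and 4.90 in replicate 3. The log2 fold change was 0.07 (SE 0.12, 95% interval -0.21 to 0.35). With this signal a difference in KDM4B was not detectable in replicates 1 and 2.

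KDM5A and KDM5B remove methyl groups from H3K4, a mark of active promoters. KDM5B gave a log2 signal of 9.78 in SCR and 9.58 in HIF- cells in replicate 1, 9.76 and 9.99 in replicate 2 and 8.94 and 9.20 in replicate 3. HIF- was the lower in the first replicate and the higher in the other two, and the technical arrays overlapped. The differences were -0.20, 0.23 and 0.27, and the log2 fold change was 0.10 (SE 0.14, 95% interval -0.23 to 0.43).

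KDM2A and KDM2B bind unmethylated CpG islands through a zinc finger and remove methyl groups from H3K36, and KDM2B brings a Polycomb complex to these islands. The brightest probe of KDM2B (ILMN_1794260) gave 10.27 in SCR and 10.17 in HIF- cells in replicate 1, 10.35 and 10.57 in replicate 2 and 9.20 and 9.15 in replicate 3. The groups differed by -0.10, 0.22 and -0.05, and the log2 fold change was 0.02 (SE 0.13, 95% interval -0.28 to 0.33). The other probes of KDM2B were detected on 2 arrays (ILMN_1658232) and on 1 array (ILMN_1651464), all of them HIF- arrays. The first of these had a log2 fold change of 0.08 (SE 0.13). The second was under the median of every sample and was left out of the main fit. With no filter and each probe by itself, ILMN_1651464 had a log2 fold change of 0.14 (SE 0.06, limma adjusted p = 0.787). Its differences were 0.10, 0.07 and 0.26 in replicates 1, 2 and 3. On its technical arrays in replicate 3 ILMN_1651464 was not detected. It lay between 4.53 and 4.70 in HIF- and between 4.26 and 4.39 in SCR cells. How often undetected probes separate in this way was not computed. KDM2A was measured in replicate 3 alone, with SCR arrays at 6.94 and 7.12 and the lowest of the HIF- arrays at 6.92 and their mean at 6.96. The difference of its means was -0.07 and the arrays overlapped. It has no biological replicate and was not tested.

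Counted together, 0 of 8 members passed limma at an adjusted p under 0.05, against 14 of all 12193 features (0.115%, 0.0738% higher and 0.041% lower). The count of 14 was 0 without replicate 1, 185 without replicate 2 and 67 without replicate 3, and no member was among the calls. At an unadjusted p under 0.05 there was 1 higher member, KDM6B, and 1 lower, KDM3A, against 3.4% and 4.13% of all features (7.54% in either direction). By the methods' t-test there were 0 members past the same unadjusted threshold. Differences of 1 sign in all 3 replicates were found for KDM6B (higher) and for KDM3A and KDM3B (lower), and for 31.9% of all features (14.5% higher, 17.4% lower). The methods call a gene regulated when its change keeps its sign and ranks in the top 10% in every replicate. Under a rebuilt form of this rule 0 members did so, against 0.763% of all features (0.394% higher, 0.369% lower). KDM6B reached the top 10% in replicate 1 alone and KDM4C in replicate 3 alone. The median log2 fold change of the 8 members was 0.05, and that of all features was -0.01. In replicates 1, 2 and 3 the median of the members was -0.07, 0.08 and 0.12. The 95% intervals, which are not adjusted for the number of features, reached between 0.28 and 0.40 to either side of the estimate. Smaller changes than these were not resolved even before adjustment. Larger ones need not pass the test, since the smallest absolute change among the features that passed was 1.06. The median standard error of the members, 0.136, was close to that of all features, 0.135.

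**Figure D3:**
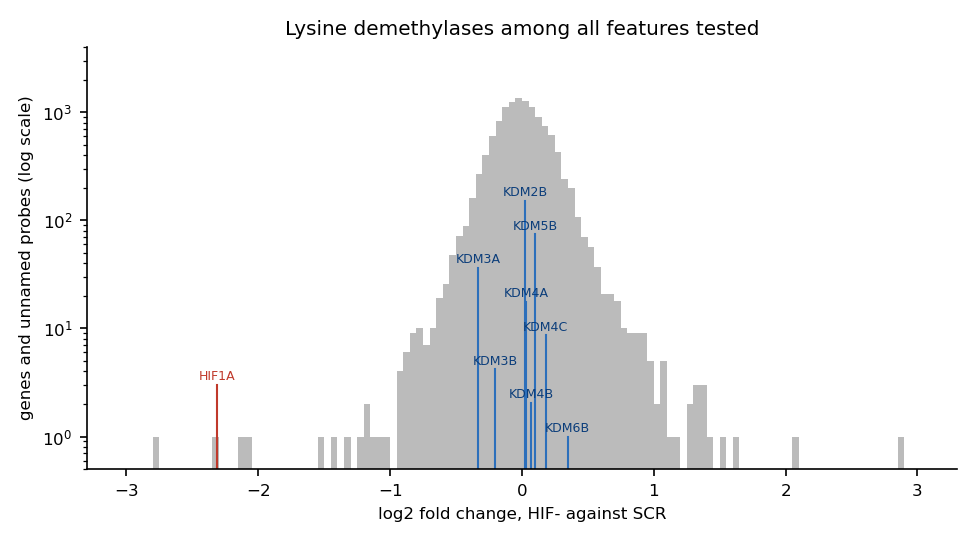
Number of features (vertical axis, log scale) by log2 fold change of HIF- against SCR (horizontal axis) for all 12193 features tested. Blue lines mark the 8 tested demethylases, all between -0.33 and 0.35, and the red line marks HIF1A at -2.31; the height of a line only makes room for its name.

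The genes whose 3 within-replicate differences were most like those of KDM6B, the member with the largest absolute t, were UQCR11, RN7SK and FKBPL. Likeness was the Euclidean distance over the 3 log2 differences. UQCR11, a small subunit of respiratory complex III, had differences of 0.51, 0.33 and 0.11 at a distance of 0.0599. RN7SK, the noncoding RNA that holds the elongation factor P-TEFb inactive, had 0.54, 0.38 and 0.06 at a distance of 0.0689. FKBPL had 0.54, 0.31 and 0.12 at a distance of 0.0745. These are 3 points per gene, and 83 of all features in the fit, unnamed probes and members included, lay within a distance of 0.2.

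Of 19 other genes with a Jumonji domain 14 were tested, and 0 of these passed limma in either direction, 0 did so at an unadjusted p under 0.05, and the median log2 fold change was 0.04. JMJD8 had a log2 fold change of -0.19 (SE 0.12) and RIOX1, a ribosomal oxygenase, of 0.09 (SE 0.13). KDM6A, the X-linked relative of KDM6B with the same substrate, was named after its value was seen. It had a log2 fold change of -0.32 (SE 0.16, limma adjusted p = 0.684), opposite in sign to KDM6B. The differences of KDM6A were -0.71, -0.20 and -0.04 in replicates 1, 2 and 3. The demethylases that use flavin in place of iron, with the partners of the CoREST complex, gave 0 of 7 past the test and 0 at an unadjusted p under 0.05. The median log2 fold change of these was -0.15, and 6 of the 7 were below 0, as were 6305 of all 12193 features. KDM1A, the flavin enzyme that removes methyl groups from H3K4, had a log2 fold change of -0.15 (SE 0.13). The histone deacetylases HDAC1 and HDAC2 of that complex had 0.05 (SE 0.13) and -0.15 (SE 0.13).

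None of the tested methyltransferases that set the marks these enzymes remove passed limma. For H3K4, 0 of 11 genes passed and the median was 0.0020, with DPY30 at 0.13 (SE 0.15) and ASH2L at -0.09 (SE 0.13), both core subunits of the methyltransferase complexes. For H3K9, 0 of 7 passed and the median was -0.03, with SUV39H1 at -0.04 (SE 0.12) and SETDB1 at 0.06 (SE 0.12). The H3K9 enzyme EHMT1, named after its value was seen, had the lowest value of all these lists at -0.63 (SE 0.22). Its limma p was 0.0224 before and 0.556 after adjustment. The differences of EHMT1 were -0.50, -1.27 and -0.10 in replicates 1, 2 and 3, at a mean log2 signal of 5.09. For H3K27, 0 of 10 genes passed and the median was -0.02, and the PRC2 subunit SUZ12 and the histone-binding RBBP7 both had -0.25 (SE 0.15 and 0.13). For H3K36, 0 of 6 passed and the median was -0.03, with SETD2 at -0.07 (SE 0.13) and SETMAR at 0.02 (SE 0.14). Of the partners of KDM2B and of the KDM5 enzymes, 0 of 15 passed, with a median of 0.03. The chromodomain protein MORF4L1 had -0.22 (SE 0.13) and RING1, a ubiquitin ligase of Polycomb, -0.03 (SE 0.15). At an unadjusted p under 0.05 EHMT1 was the only gene in these 5 lists.

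**Figure D4:**
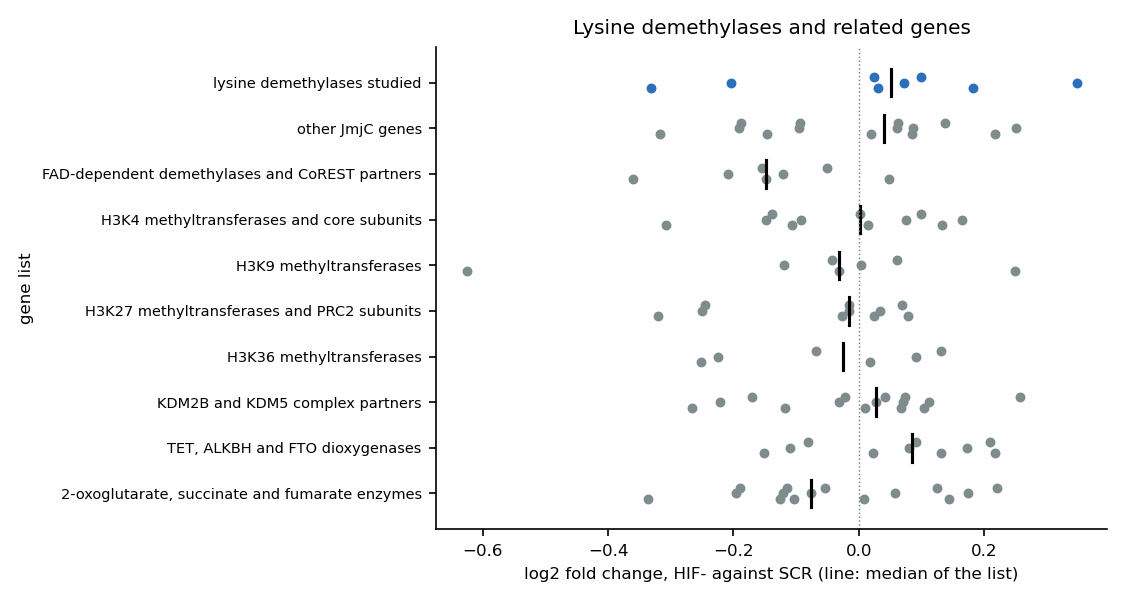
Log2 fold change of HIF- against SCR (horizontal axis) for each tested gene of 10 gene lists (vertical axis); a point is a gene and the black line is the median of the list. The 8 demethylases (blue) lie between -0.33 and 0.35 around a median of 0.05, and EHMT1 at -0.63 is the point farthest from 0.

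The direction of KDM3A and of KDM6B was the same under all 16 alternatives tried, but most of these could not have changed it. Those that alter only the filter, the probe choice or the test left the value as it was. Leaving out a replicate could not turn KDM3A, KDM6B or KDM3B, whose differences had 1 sign in all 3 replicates. For these members only other background corrections, scaling, the processed values and the first technical replicate alone could change the sign. Under each of those the sign held. KDM3A ranged from -0.41 to -0.20 on the log2 scale and KDM6B from 0.14 to 0.55. KDM3B stayed below 0 and KDM4C and KDM5B above 0 under the same 16, and KDM4B above 0 under the 14 that gave it a value. KDM2B and KDM4A each changed sign under 2 of the 16. No member passed its test under any of them.

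**Figure D5:**
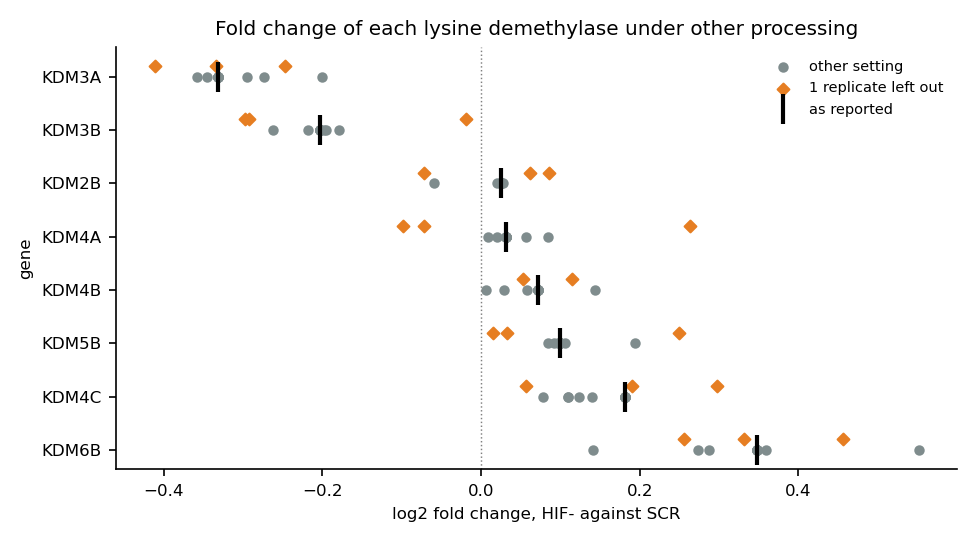
Log2 fold change of HIF- against SCR (horizontal axis) of each tested demethylase (vertical axis) as reported (black bar), with 1 replicate left out (orange) and under the other settings (grey). KDM3A stays between -0.41 and -0.20 and KDM6B between 0.14 and 0.55, while KDM2B and KDM4A fall on both sides of 0.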

How the data were processed

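Total RNA of AGS cells was labelled and hybridized to Illumina BeadChips, and 9 arrays of 3 biological replicates per group were used. The deposited non-normalized tables give for each probe the log2 signal and the detection p-value on each array. The methods name RMA and the beadarray package, with versions not given in the sources used here. The authors' processed tables hold quantile-normalized log2 values and served as an alternative. Linear signals had been assumed when the tests were set, so the log2 values were first taken back to that scale. The background was corrected with nec of limma 3.58.1 in R 4.3.3 (offset 16), quantile normalization was run separately on each array version, log2 was taken and technical replicates were averaged. Of the 24525 probes on both versions, 14683 were above their array median in at least 1 sample and were kept (9842 discarded), as in the methods. The brightest probe of each gene stood for it, which left 11071 named genes and 1122 unnamed probes. Symbols came from the platform annotation through Entrez IDs, and 22317 of the common probes had a symbol. Replicate 3 was normalized apart from the others, so its levels are compared only within it.

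HIF- and SCR were compared by limma (lmFit, eBayes) with the replicate as a block, as the methods take fold changes within each experiment (residual degrees of freedom 2, prior 5.26). P-values were Benjamini-Hochberg adjusted over all 12193 features. The deviations of both groups from their means correlated in every replicate (0.623, 0.798 and 0.846 for replicates 1 to 3). An array version shared by the groups adds to these values, and within HumanRef-8 the correlation was 0.675. The rank rule of the methods was rebuilt, with each change scaled by the running median absolute deviation of 501 genes of like signal, since its error model is cited and not described. Genes named were HIF1A, the members, the 3 genes most like the member with the largest absolute t, and from each list the members past the test or, where fewer than 2 passed, the 2 with the highest mean signal. KDM1A, SUCLG2 and the cell type markers were named outside this rule, and other exceptions are given as such. The members and lists were chosen with earlier results of these data known. The scripts were tested on simulated data. The alternatives in processing were other background corrections, scaling, the processed values, other filters, each probe by itself and only the first technical replicate. Those in the test were no block, eBayes with a trend, an unpaired t-test and each replicate left out. The methods name the unpaired t-test in general, and their rule for the arrays does not use it. No column of another sample was used.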

Additional observations from a re-analysis of the deposited data

How the results depend on the processing

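In all alternatives, 0 members passed limma, the unpaired t-test (also unadjusted) or the rank rule. The median log2 fold change of the members stayed between 0.01 and 0.08. The count of all transcripts past the test, 14, was 8 with normexp and 50 with median scaling in place of quantiles. With no filter it was 0, and with the first technical replicate only it was 9. By the unpaired t-test it was 0 after adjustment (116 unadjusted). Leaving out a replicate gave counts from 0 to 185, the lowest without replicate 1, the highest without replicate 2 and 67 without replicate 3. Without the replicate block it was 2, with or without the array version as covariate. The log2 fold change of HIF1A was -2.31 in all 4 of the following. Its limma adjusted p was 0.462 with no filter, and 0.99996 and 0.782 without the block (with and without the covariate). By the unpaired t-test, which also ignores the replicate, the adjusted p was 0.99995. The log2 fold change of HIF1A ranged from -2.46 to -2.13 with a replicate left out, and without replicate 1 its limma adjusted p was 0.0908. The log2 fold change of KDM2B turned to -0.060 with the first technical replicate only, and to -0.072 without replicate 2 (range -0.072 to 0.086 with a replicate left out). That of KDM4A turned to -0.10 without replicate 1 and to -0.07 without replicate 3 (range -0.10 to 0.26). KDM4B had no value under the filter on detection or without replicate 3. The causes were not tested. Fewer samples entered the fits without a replicate, and more features the fit with no filter. The fits without the block and the unpaired t-test used the same samples and features but not the pairing by replicate. The prior degrees of freedom of eBayes, 5.26 in the main fit, were 3.75, 435 and 28.6 without replicates 1, 2 and 3. Low signal limits KDM4B and KDM6B, which were detected on 3 and 4 of 9 arrays.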

Other observations

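The oxygenases that share the chemistry of the Jumonji enzymes but act on nucleic acids (the TET, ALKBH and FTO proteins) had 0 of 10 tested genes past limma in either direction and 0 at an unadjusted p under 0.05. Their median log2 fold change was 0.09, and 7 of the 10 were above 0, as were 5888 of all 12193 features. ALKBH5, which removes methyl groups from adenine in RNA, had a log2 fold change of -0.11 (SE 0.14) and ALKBH6 of 0.13 (SE 0.15). TET1, which oxidizes methylcytosine in DNA, had 0.21 (SE 0.21) and was named after its value was seen. The differences of TET1 were -0.25, 0.87 and 0.01 in replicates 1, 2 and 3.

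The enzymes that make or use 2-oxoglutarate, succinate and fumarate, the co-substrate and the inhibitors of the demethylases, had 0 of 15 tested genes past limma and 1 at an unadjusted p under 0.05. The median log2 fold change was -0.08. IDH1, the cytosolic isocitrate dehydrogenase, had a log2 fold change of -0.13 (SE 0.15), and IDH3B, a subunit of the mitochondrial enzyme, of 0.01 (SE 0.13). The gene under the unadjusted threshold was SUCLG2, a subunit of succinyl-CoA ligase, at -0.34 (SE 0.13, with a limma p of 0.0317 before and 0.592 after adjustment).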
